A study of Homo sapiens with 24 samples.

Results

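The aminoacyl-tRNA synthetases were taken as every gene whose symbol follows the pattern of the family (a letter for the amino acid followed by ARS, with or without a final 1 or 2) or is FARSA, FARSB or EPRS1. In all, 37 genes matched, 20 named as cytosolic and 17 whose symbol ends in 2 and which were taken as mitochondrial. All 37 were listed in the tables of Hs578T (19283 genes), HCC70 (18248 genes) and the depletion experiment (60651 genes), and 36 in the table of the overexpression experiment (23792 genes), where VARS2 was not analysed here. KARS1 and GARS1, which are known to give a cytosolic and a mitochondrial enzyme from the same gene, were kept with the cytosolic enzymes, and leaving them out did not move the median of that class in any of the 4 comparisons beyond its spread between replicates.

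The 24 RNA-Seq libraries came from 3 established triple-negative breast cancer (TNBC) cell lines, with 3 biological replicates in each of 8 conditions. Wild-type Hs578T and HCC70 cells were separated by flow cytometry into breast cancer stem-like cells (BCSCs), which were CD24-CD44+ and ALDH+, and non-BCSCs, which lacked both features. MDA-MB-231 cells carried a control guide RNA (sgCtrl) or the guide KIF20A sg1 against the mitotic kinesin KIF20A, delivered by lentivirus. In the last experiment, MDA-MB-231 cells carried the empty vector (EV) or were labelled as KIF20A overexpression (OE). The depletion rests on 1 guide and both vector experiments on populations after drug selection, and each of the 4 experiments is also 1 batch in the labels. Of the sorting markers, ALDH1A3, an aldehyde dehydrogenase, was 296, 291 and 280 TPM in Hs578T non-BCSCs and 701, 709 and 708 TPM in BCSCs, while CD24 in HCC70 was 912, 828 and 831 TPM against 685, 667 and 725 TPM and did not pass the test (adjusted p = 0.0543). The sorting markers listed were CD24, CD44, ALDH1A3 and ALDH1A1. In Hs578T, 1 of 3 tested passed as higher and in HCC70 0 of 4, against 2.9% and 2.28% of all genes. Groups did not overlap for 1 marker higher in each line (12% and 20.9% of all genes) and 1 lower in HCC70 (10.1%). In such bulk samples, fewer cells of a type and less RNA per cell cannot be told apart.

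Aminoacyl-tRNA synthetases join each amino acid to its tRNA and so supply the ribosome. Cytosolic enzymes serve the translation of nuclear messages, several of them bound in the multisynthetase complex, while mitochondrial enzymes are made from nuclear genes, imported, and serve the small set of respiratory chain proteins encoded by mitochondrial DNA. Many cytosolic synthetases are known targets of ATF4, the transcription factor that raises amino acid synthesis, uptake and charging when amino acids are short, and which binds composite elements whose core reads TGATGNAA.

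This core was looked for on both strands in the promoters held by RefSeq (GRCh38.p14, 250 bases before to 50 bases after each start), where 30 of the 37 members were matched. The core was found in 7 of 16 promoters of cytosolic enzymes and 1 of 14 of mitochondrial enzymes, against 4.46% of all 27305 genes with a promoter. The 8 matches are shown because the cytosolic ones include both members that rose in HCC70 BCSCs. Capitals mark the core, which reads as its reverse complement in 6 of the 8, and each window is written along the gene's own strand.
AARS1 (chr16:70289675-70289704, minus strand): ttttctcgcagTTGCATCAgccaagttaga
CARS1 (chr11:3057407-3057436, minus strand): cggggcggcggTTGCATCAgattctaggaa
GARS1 (chr7:30594834-30594863, plus strand): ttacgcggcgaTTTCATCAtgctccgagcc
IARS1 (chr9:92293692-92293721, minus strand): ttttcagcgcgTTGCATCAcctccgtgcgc
MARS1 (chr12:57488053-57488082, plus strand): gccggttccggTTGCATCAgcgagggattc
NARS1 (chr18:57621804-57621833, minus strand): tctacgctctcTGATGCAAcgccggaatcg
TARS1 (chr5:33440956-33440985, plus strand): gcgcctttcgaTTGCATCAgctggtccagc
YARS2 (chr12:32756076-32756105, minus strand): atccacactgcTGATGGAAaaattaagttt
The same letters, TGATGCAA, filled the core in 6 of the 8. The core began 2 bases downstream of the start in TARS1 and 14 bases downstream in NARS1, and at -2 in CARS1, -4 in MARS1, -13 in IARS1 and -33 in GARS1. In AARS1 and YARS2 it lay farther out, at -187 and -197. A match describes letters in a window and is not a measured binding site. The CCAAT box, searched in the same way and able to share no more than its end base with the core, was in 7 of 16 cytosolic and 9 of 14 mitochondrial promoters, against 39.7% of all.

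Cytosolic enzymes were the more abundant class in every table. In Hs578T the median level was 161 TPM (transcript abundance per length, scaled to a fixed total) over the cytosolic enzymes and 23.2 TPM over the mitochondrial ones. In HCC70 the medians were 145 and 16.8 TPM. The order within each class was much the same at its ends. TARS1, the threonine enzyme, was the highest cytosolic member at 413 ± 21.0 TPM (SD, n = 3) in non-BCSCs of Hs578T and 507 ± 34.1 TPM in those of HCC70, and IARS2, the mitochondrial isoleucine enzyme, the highest mitochondrial member at 122 ± 4.28 and 174 ± 3.84 TPM. NARS1 followed TARS1 in Hs578T at 318 ± 17.2 TPM, beyond the spread of both. In HCC70 the neighbour of TARS1 was GARS1 at 434 ± 13.3 TPM. At the low end of the cytosolic class stood VARS1, the valine enzyme, at 9.40 ± 0.667 TPM in Hs578T and 11.4 ± 0.664 TPM in HCC70 non-BCSCs, and of the mitochondrial class VARS2 at 2.95 ± 0.137 TPM in Hs578T and over both groups of HCC70 MARS2, at 4.70 ± 0.0824 TPM in non-BCSCs, where VARS2 was lower at 4.41 ± 0.285 TPM.

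The low TPM of both valine enzymes does not mean few reads. VARS1 had 2689 to 3723 recovered reads in the Hs578T libraries at about 9 to 10 TPM, while FARSA, a subunit of the phenylalanine enzyme, had 1853 to 2550 reads at 86 to 101 TPM. The length by which VARS1 reads had been divided came to 6.81 times its exon length in GENCODE 44, and that of VARS2 to 5.21 times, whereas the other 35 members of the Hs578T table lay between 0.156 and 1.90 times. Their TPM can be compared between libraries but not with other members, and the cause was not tested.

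In MDA-MB-231 the tables have no length term, so levels were divided by merged exon length (CPM per kb of GENCODE 44 exons). The length behind the Hs578T TPM was 0.244 (HARS1), 0.423 (CARS1), 0.352 (LARS1) and 0.230 (NARS2) times this length. For TARS1, FARSA and SARS2 it was 1.115, 1.145 and 1.036 times. The low ranks of HARS1, CARS1, LARS1 and NARS2 given here thus depend on the length used. TARS1 was again highest among cytosolic enzymes of the depletion experiment (130 ± 22.6 CPM per kb in sgCtrl) and HARS1, the histidine enzyme, lowest (5.85 ± 0.887). In EV libraries, TARS1 stood at 72.8 ± 10.6 and FARSA at 59.3 ± 4.55 CPM per kb, with FARSA highest over both groups, and CARS1, the cysteine enzyme, lowest over both groups (8.80 ± 1.33 in EV), within the spread of LARS1 (7.70 ± 0.568 in EV), the leucine enzyme. IARS2 was the highest mitochondrial member in both experiments, at 68.9 ± 14.8 and 38.2 ± 2.65 CPM per kb. The lowest was VARS2 in the depletion experiment, where it was listed at 0 to 0.0401 CPM and was not tested. In the overexpression experiment it was SARS2, the mitochondrial serine enzyme, over both groups, at 0.873 ± 0.274 CPM per kb in EV, where NARS2 (0.827 ± 0.107) lay within its spread. Both lie where another gene of the same strand covers 63% and 48.2% of their exon bases, and the part of this in their low values was not tested.

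AARS2, the mitochondrial alanine enzyme (chr6:44298731-44313347), was measured in all 8 conditions. In Hs578T it was 19.1, 20.0 and 20.5 TPM in non-BCSCs and 21.5, 21.2 and 22.7 TPM in BCSCs, and 13.1, 12.9 and 14.9 TPM against 15.2, 15.9 and 13.9 TPM in HCC70. The groups did not overlap in Hs578T, but the differences of 0.13 on the log2 scale in both lines did not pass the test (adjusted p = 0.187 and 0.371). With sgCtrl it was 37.3, 36.2 and 21.6 CPM and with KIF20A sg1 26.0, 21.4 and 30.1 CPM, so that the groups overlapped. Its rise in the overexpression experiment is given with that experiment. Tables were normalized separately and levels are not tested across them.

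BCSCs of Hs578T differed little from non-BCSCs in these enzymes. By limma on log2(TPM + 1), with adjusted p under 0.05 over 13324 genes as a call, 1 of 37 members was higher in BCSCs and 1 lower, against 2.9% of all genes called higher and 4.26% called lower. The medians were 0.02 over the cytosolic and 0.03 over the mitochondrial enzymes, beside -0.01 over all genes. WARS1, the tryptophan enzyme, which interferon is known to induce (chr14:100333790-100376805), was 162, 163 and 160 TPM in non-BCSCs and 130, 129 and 146 TPM in BCSCs. All 3 BCSC libraries were below all non-BCSC libraries, and the difference on the log2 scale was -0.26 (standard error 0.06, adjusted p = 0.0313). YARS2, the mitochondrial tyrosine enzyme (chr12:32727490-32755897), was 26.0, 25.0 and 23.8 TPM in non-BCSCs and 30.1, 30.0 and 28.3 TPM in BCSCs, higher by 0.23 (standard error 0.05, adjusted p = 0.0367). MARS2, the mitochondrial methionine enzyme, was 6.20, 5.62 and 5.59 TPM against 7.08, 7.03 and 7.22 TPM, by 0.25 (standard error 0.06), and did not pass (adjusted p = 0.0519). Groups did not overlap for 6 members higher in BCSCs, 5 of them mitochondrial, and 2 lower, against 12% and 17% of all genes. Both calls were lost without a minimum level and with a term for replicate number (the replicate block). They were also lost in 5 of the 6 fits that left out 1 library. They passed only without BCSC library 3 (adjusted p = 0.0128 for WARS1 and 0.0469 for YARS2), and in the other 5 the adjusted p was 0.0583 to 0.137 and 0.0586 to 0.156. Exons of opposite-strand genes cover 10.6% of the exon bases of WARS1 and 18.1% of those of YARS2, and the strand setting of the counting is not given in the sources used here.

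In HCC70, most cytosolic synthetases had somewhat higher values in BCSCs, and few passed the test. Of the 37 members, 2 cytosolic enzymes were called higher and none lower, against 2.28% of 13218 genes called higher and 0.552% called lower. The medians were 0.15 over the cytosolic and 0.06 over the mitochondrial enzymes, beside 0.02 over all genes. Of the 20 cytosolic enzymes, 13 were higher in all BCSC libraries than in all non-BCSC libraries, and of the 17 mitochondrial enzymes 6 were, against 20.9% of all genes. In each class, 1 enzyme was lower without overlap, CARS2 among the mitochondrial ones, against 10.1% of all genes. MARS1, the methionine enzyme (chr12:57475445-57517569), was 157, 189 and 182 TPM in non-BCSCs and 225, 229 and 228 TPM in BCSCs. It rose by 0.37 (standard error 0.07, adjusted p = 0.0463). CARS1 (chr11:3000922-3057613) was 44.4, 49.8 and 47.9 TPM and 56.3, 58.3 and 60.0 TPM, and rose by 0.29 (standard error 0.06, adjusted p = 0.0495). WARS1, lower in BCSCs of Hs578T, was here 115, 117 and 121 TPM in non-BCSCs and 136, 136 and 138 TPM in BCSCs, by 0.21 (standard error 0.05), without passing (adjusted p = 0.0587).

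Both calls in HCC70 stood close to the threshold. They were lost without a minimum level (adjusted p = 0.0816 for MARS1 and 0.0737 for CARS1) and where libraries were rescaled to the median ratio (the median of ratios, 0.0860 and 0.0895). Both were also lost with the replicate block, and CARS1 with a pseudocount of 0.1 (0.0509). MARS1 passed in 1 of the 6 fits without 1 library, the one without non-BCSC library 1 (adjusted p = 0.0400), and had 0.0639 to 0.175 in the others, while CARS1 passed in none (0.0748 to 0.164). On recovered reads, 4 members were called higher by edgeR and 9 by DESeq2, MARS1 and CARS1 among both. Over all genes, 440 of 13951 were called higher by edgeR and 617 of 17222 by DESeq2. Non-BCSC library 1 was the lowest of the 6 for MARS1, CARS1, AARS1 (294 TPM against 369 to 476 TPM) and YARS1 (223 TPM against 256 to 309 TPM). Exons of opposite-strand genes cover 12.4% of the exon bases of MARS1, 355 of them in DDIT3, and 2.8% of those of CARS1, and their part in the values was not tested.

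**Figure D1:**
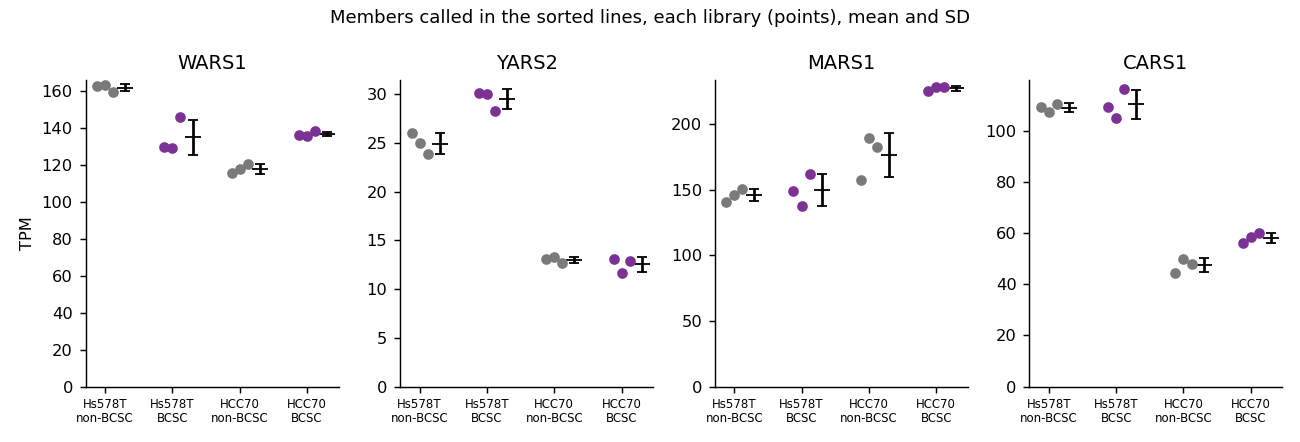
TPM of WARS1, YARS2, MARS1 and CARS1 in each sorted library of Hs578T and HCC70 (points; grey, non-BCSC; purple, BCSC), with mean and SD of 3 libraries. WARS1 BCSC values lie at 129 to 146 TPM below non-BCSC values in Hs578T and at 136 to 138 TPM above them in HCC70.

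The difference between the lines was tested as the interaction of fraction and cell line over 11668 genes. Of these, 5.62% were called with a larger BCSC effect in HCC70 and 1.49% with a larger one in Hs578T. Larger here means the higher log2 fold change with its sign. Of the 37 members, 2 were called, both with the larger effect in HCC70, which is near the share over all genes. For WARS1, the BCSC effect was larger in HCC70 by 0.47 on the log2 scale (standard error 0.07, adjusted p = 0.0033), and it passed under every alternative run. For CARS1, whose groups overlapped in Hs578T (109, 107 and 111 against 109, 105 and 116 TPM), it was larger by 0.28 (standard error 0.08, adjusted p = 0.0475). CARS1 no longer passed with the median of ratios (adjusted p = 0.110) or the replicate block. It passed in 2 of 12 fits without 1 library, those without Hs578T BCSC library 3 (0.0299) and HCC70 non-BCSC library 2 (0.0383). In the other 10, the adjusted p was 0.0596 to 0.113. Cell line and batch cannot be told apart here.

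The ATF4 amino acid response was represented by a list of 22 genes other than the synthetases. In HCC70 BCSCs, 6 of the 22 were called higher and none lower, against 2.28% and 0.552% of all genes. Without overlap, 17 were higher, against 20.9% of all genes, and their median was 0.28 beside 0.02. ASNS, asparagine synthetase, was 214, 224 and 222 TPM in non-BCSCs and 301, 288 and 299 TPM in BCSCs, higher by 0.43 (standard error 0.05, adjusted p = 0.00855). SESN2, the leucine-sensing sestrin, rose by 0.49 (standard error 0.05, adjusted p = 0.00594), and DDIT3, DDIT4, NUPR1 and STC2 were the other 4. With the median of ratios, 4 of the list were called higher, without DDIT4 (adjusted p = 0.0700) and NUPR1 (0.0579). Over all genes, 167 of 13209 were called higher there. ATF4 itself was 403, 401 and 434 TPM and 538, 549 and 450 TPM, by 0.31, without passing (adjusted p = 0.0883). In Hs578T, 5 of the 22 were called higher (PSAT1, SLC3A2, SLC7A5, STC2 and TRIB3) and 1 lower (DDIT4), against 2.9% and 4.26% of all genes. Their median was 0.10, while the 7 cytosolic enzymes with the core had a median of 0.03. With the median of ratios, 7 of the list were called higher and 1 lower, where 620 and 573 of 13325 genes were.

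In HCC70 the 7 cytosolic enzymes with the promoter core had a median difference of 0.22, from 0.05 for NARS1 to 0.40 for AARS1, and included both called members. The 9 cytosolic enzymes whose promoter held no core had a median of 0.12, from -0.11 for FARSB to 0.28 for SARS1. The ranges overlapped widely. Without overlap, 5 of the 7 with the core and 6 of the 9 without it were higher in BCSCs, against 20.9% of all genes. SARS1 and QARS1, the serine and glutamine enzymes, had values of 0.28 and 0.26 with no core in the window. In Hs578T, KIF20A depletion and the overexpression experiment the corresponding medians were 0.03 and -0.01, -0.12 and -0.06, and -0.13 and 0.46.

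**Figure D2:**
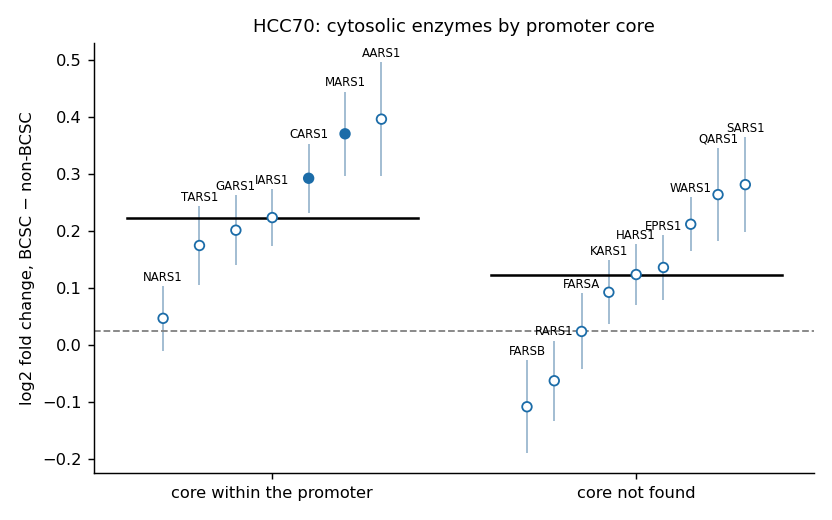
Log2 fold change between BCSCs and non-BCSCs of HCC70 for 16 cytosolic enzymes with a RefSeq promoter, by whether the core TGATGNAA lies in it; bars are standard errors, filled points passed the test, black lines are group medians (0.22 and 0.12) and the dashed line is the median of all genes (0.02). The 2 filled points, MARS1 and CARS1, both have the core.

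With KIF20A sg1, no member passed the test. Of 36 members tested, 0 were called higher and 0 lower by limma, where 0% of 12852 genes were called higher and 0% lower. At an unadjusted p under 0.05, 1 member (HARS1) and 899 genes were listed, and neither edgeR nor DESeq2 called a member. The medians were -0.09 over the cytosolic and -0.07 over the mitochondrial enzymes, beside 0.00 over all genes. KIF20A itself, the targeted gene, was 153, 173 and 156 CPM with sgCtrl and 122, 145 and 91.1 CPM with the guide, a difference of -0.45 (standard error 0.16, adjusted p = 0.690) with no overlap. HARS1 was 93.3, 86.3 and 68.9 CPM against 62.8, 65.5 and 70.6 CPM, a difference of -0.31 (standard error 0.14, adjusted p = 0.694). FARSA and QARS1 had the next smallest p, with differences of -0.21 and -0.19 (adjusted p = 0.708 and 0.726). Groups did not overlap for 1 member higher and 1 lower (QARS1), against 5.73% and 7.3% of all genes.

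The spread within groups was wide for several cytosolic enzymes. AARS1 was 149, 213 and 155 CPM with sgCtrl and 155, 104 and 172 CPM with KIF20A sg1, so that library 2 was the highest of its group in one and the lowest of its group in the other. CARS1 (91.3, 127 and 93.7 against 101, 67.4 and 103 CPM), MARS1 (151, 232 and 189 against 159, 124 and 205 CPM) and YARS1 (181, 265 and 230 against 208, 140 and 236 CPM) had library 2 in the same places. ATF4 was 206, 272 and 202 CPM and 230, 131 and 218 CPM. No gene of the ATF4 list was called (0 of 20 tested, median -0.21). Without KIF20A sg1 library 2, the median of the cytosolic enzymes was -0.01, and without sgCtrl library 2 it was -0.05. It was -0.0003 without sgCtrl library 3, where 144 genes but no member were called, and -0.18 without sgCtrl library 1 or KIF20A sg1 library 3.

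**Figure D3:**
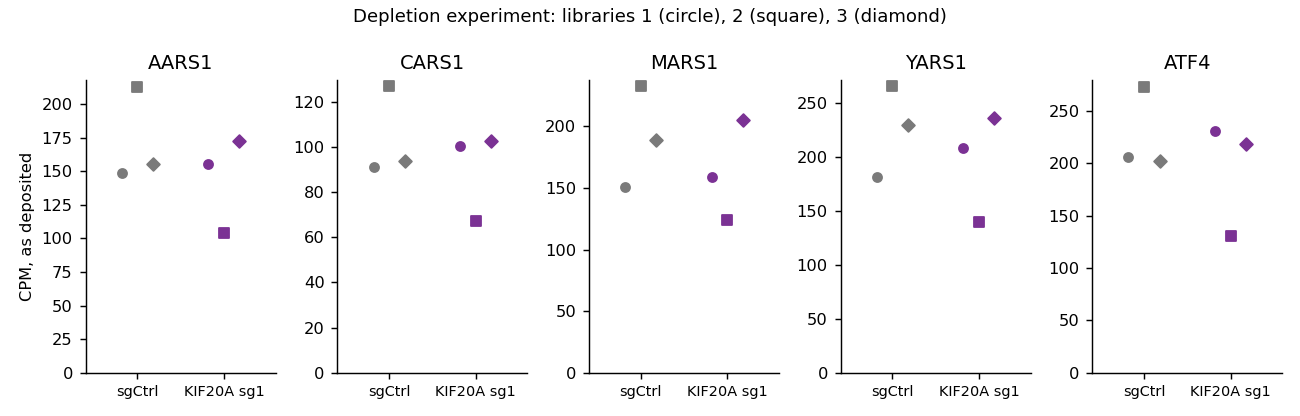
Deposited CPM of AARS1, CARS1, MARS1, YARS1 and ATF4 in each library of the depletion experiment (grey, sgCtrl; purple, KIF20A sg1; marker shape gives the library number). In every panel the square of sgCtrl is the highest and the square of KIF20A sg1 the lowest of the 6 libraries.

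Libraries labelled KIF20A OE differed from EV across most of the transcriptome, and mitochondrial synthetases were among the members that differed most. KIF20A was 101, 143 and 124 CPM in EV and 1348, 269 and 896 CPM in the libraries labelled OE. Of 15265 genes, 46.2% were called higher and 23.4% lower, and the median over all genes was 0.37. The markers of a mesenchymal breast line were lower in all 10 of 10 genes, with a summed level of 9697 to 11469 CPM in EV and 654 to 1147 CPM in the other group. CD44 was 788, 615 and 523 CPM in EV and 0.125, 0.316 and 1.23 CPM in the libraries labelled OE. Of the markers of embryonic kidney lines, 10 of 10 were higher, with a summed level of 16.7 to 20.4 CPM in EV and 2334 to 2754 CPM in the libraries labelled OE, and IRS4 was at 0 in every EV library and 1219 to 1750 CPM in the others. AXL and NT5E, abundant in EV, were at most 0.811 and 0.428 CPM in these libraries. The libraries labelled OE thus lack defining markers of the labelled cell line, and the part of this in the differences below was not tested.

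Of the 36 members, 21 were called higher and 1 lower in the libraries labelled OE, against 46.2% and 23.4% of all genes. Of the 16 mitochondrial enzymes 12 were called higher and 1 lower, with a median of 1.04, and of the 20 cytosolic enzymes 9 were called higher and none lower, with a median of 0.31, beside the 0.37 over all genes. Groups did not overlap for 22 members higher and 1 lower, against 48.9% and 25.2% of all genes. Rescaling by the median of ratios moved the median of all genes to 0.03 and the calls to 5129 higher and 5007 lower of 15178 genes. Under it, 15 members were called higher and 8 lower. The cytosolic class then had 5 higher and 6 lower with a median of -0.06, just under the median of all genes as before the rescaling, and the mitochondrial class had 10 higher and 2 lower with a median of 0.68.

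Several mitochondrial enzymes differed widely. AARS2 was 21.4, 25.2 and 27.6 CPM in EV and 102, 107 and 97.1 CPM in the libraries labelled OE, higher by 2.01 on the log2 scale (standard error 0.13, adjusted p = 4.74e-06). TARS2, the mitochondrial threonine enzyme, was 31.3, 31.9 and 26.9 CPM and 112, 127 and 102 CPM, higher by 1.88. Both stayed higher, by 1.65 and 1.52, after the median of ratios. MARS2 (1.62), EARS2 (1.57), the mitochondrial glutamate enzyme, and NARS2 (1.34), the mitochondrial asparagine enzyme, followed, and all 5 were called after that rescaling too. FARS2, the mitochondrial phenylalanine enzyme (chr6:5261044-5829192), was 25.7, 23.7 and 19.0 CPM in EV and 14.3, 18.4 and 15.2 CPM in the other group, and fell by 0.48 (standard error 0.18, adjusted p = 0.0393). It lost its call without EV library 1 (adjusted p = 0.118), EV library 2 (0.0954), OE library 1 (0.120) or OE library 3 (0.109), and with the replicate block.

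Among the cytosolic enzymes, FARSB, the other subunit of the phenylalanine enzyme, was 60.4, 66.9 and 54.0 CPM in EV and 135, 173 and 144 CPM in the libraries labelled OE, higher by 1.30 (standard error 0.14, adjusted p = 6.51e-05). AARS1 followed at 1.05, then EPRS1 (0.94), which carries the glutamate and proline activities, MARS1 (0.91), YARS1 (0.81), the tyrosine enzyme, and SARS1 (0.57). With the median of ratios, FARSB, AARS1, EPRS1, MARS1 and YARS1 were still called, at 0.45 to 0.94, and SARS1 was not (0.21). FARSA was higher by 0.46 (0.10 and not called after the median of ratios), so both subunits of the cytosolic phenylalanine enzyme were called in the direction opposite to FARS2. Before the rescaling, this was the 1 amino acid for which enzymes of both classes were called in opposite directions. With the median of ratios, 6 cytosolic enzymes were called lower and 10 mitochondrial ones higher, and opposite pairs were not counted there.

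For enzymes of the same amino acid, pairs were counted where the mitochondrial member had the higher log2 fold change, with its sign. They were 12 of 17 in this experiment, 8 of 18 in Hs578T, 7 of 18 in HCC70 and 10 of 17 with KIF20A sg1. FARS2 was paired with both FARSA and FARSB, and EPRS1 with both EARS2 and PARS2. The share of the summed CPM of all members that came from mitochondrial enzymes was 12.6%, 12.3% and 14.2% in EV and 21.6%, 21.5% and 20.3% in the libraries labelled OE. It was 13.0% to 13.8% in all 6 Hs578T libraries (summed TPM), and in HCC70 it was 12.1% to 12.6% in non-BCSCs and 11.5% to 11.6% in BCSCs. These shares are weighted by the abundant members and, in MDA-MB-231, by transcript length.

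**Figure D4:**
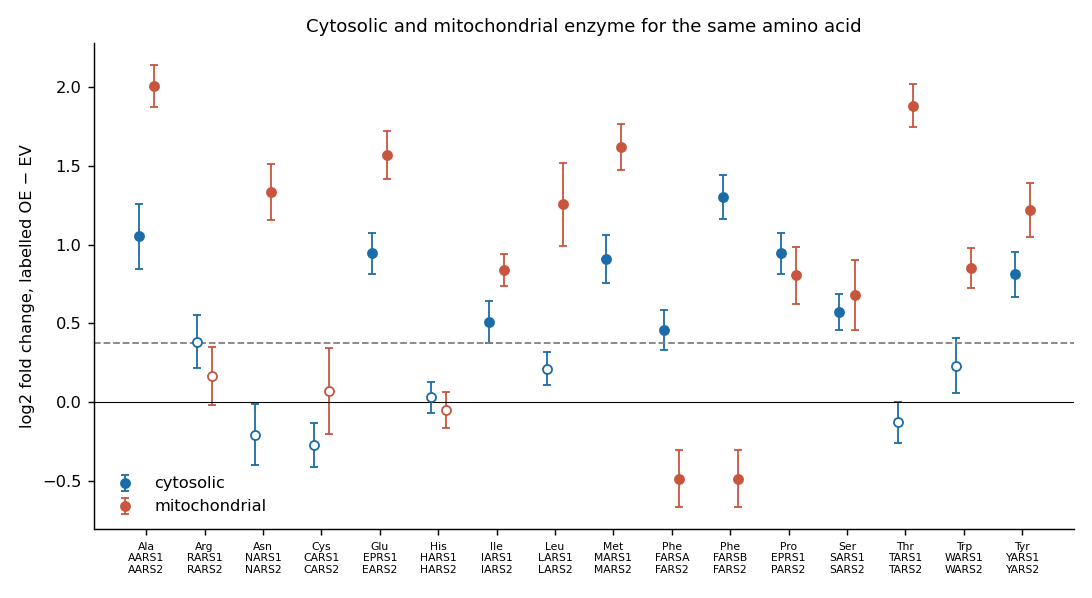
Log2 fold change in the libraries labelled KIF20A OE against EV for the cytosolic (blue) and mitochondrial (red) enzyme of the amino acids named under the axis; bars are standard errors, filled points passed the test, and the dashed line is the median of all genes (0.37). AARS2 (2.01) and TARS2 (1.88) stand highest among those drawn, and FARS2 (-0.48) lies below both subunits of its cytosolic counterpart.

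Other genes of tRNA charging, 15 in all, were not called in Hs578T, HCC70 (15 tested each) or the depletion experiment (14 tested), and 11 of 14 tested were called higher and none lower in the libraries labelled OE, with a median of 0.68 beside 46.2% of all genes called higher and a median of 0.37 over all genes. With the median of ratios, 5 of the 14 were called higher and 1 lower (DTD1), with a median of 0.32 beside 0.03. Over all genes, 5129 were called higher and 5007 lower of 15178 there. In HCC70, 1 of the 15 was called lower with that rescaling (EEF1E1), where 66 of 13209 genes were. TARS3, the third threonine enzyme, was 4.28, 3.91 and 5.17 CPM in EV and 42.5, 41.2 and 50.1 CPM, higher by 3.06 (standard error 0.17, adjusted p = 1.93e-06). All 4 genes for amidation and formylation in mitochondria passed, namely QRSL1 (1.73), GATB (1.32) and GATC (0.49), which convert glutamate on tRNA to glutamine, and MTFMT (1.49), which formylates the initiator. TARS3, QRSL1, GATB and MTFMT passed with the median of ratios too, and GATC did not. Of the scaffold proteins of the multisynthetase complex, AIMP1 (0.72) and AIMP2 (0.65) were called, AIMP2 not with the median of ratios, and EEF1E1 (0.07) was not. Of the ATF4 list, 10 of 21 genes tested were called higher (beside 46.2% of all genes) and 3 lower (beside 23.4%). With the median of ratios the counts were 8 and 3, beside 5129 and 5007 of 15178 genes. ATF4 was 271, 271 and 250 CPM against 738, 753 and 587 CPM. AARSD1 and ASNS were not analysed here in this experiment.

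**Figure D5:**
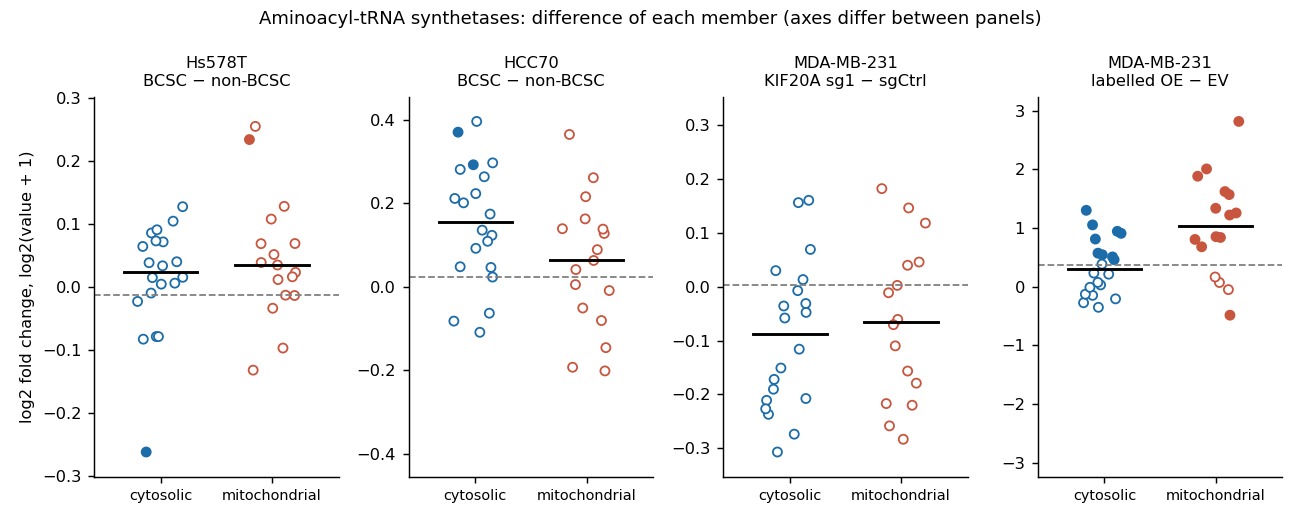
Log2 fold change of each tested member in the 4 comparisons, by class; filled points passed the test, black lines are class medians and dashed lines the median of all genes. Axes differ between panels, and the medians in HCC70 are 0.15 and 0.06, and in the overexpression experiment 0.31 and 1.04.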

How the data were processed

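Members and lists were chosen with earlier results of these data known. Poly-A libraries were stranded and read in pairs. The submitters' processing notes name HISAT2 2.0.5, featureCounts 1.5.0-p3 and GRCh38; the annotation is not given in the sources used here. The authors deposited TPM for Hs578T and HCC70, and for the overexpression experiment CPM without a length term. The deposited values of the depletion experiment are a signal that the authors name CPM, whose columns sum to 977394 to 1028621. No sample column was left unused (0).

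Genes averaging 1 or more in the 6 samples of a comparison were tested on log2(value + 1) with limma 3.58.1 (R 4.3.3, trend, two-sided), with Benjamini-Hochberg adjustment over all genes of each table. The interaction used the 12 sorted samples. The fit was tested on simulated data. Whole reads were recovered for 94.0% of genes in Hs578T, 94.4% in HCC70 and 100% in MDA-MB-231, and depth was 27567497 to 33078619, 24982823 to 33984344, 41424338 to 51018667 (depletion) and 15971297 to 22182293 reads (overexpression). edgeR 4.0.16 and DESeq2 1.42.0 used these reads, for the sorted lines as alternatives chosen after seeing the data. Other alternatives were a pseudocount of 0.1, no minimum or a minimum of 10, the median of ratios, a replicate block and leaving out each library. The median of ratios for the other gene lists was chosen after seeing the data. The labels do not say whether replicate numbers pair the samples. Correlations of same-numbered deviations ran from -0.16 to 0.19, and weak correlations cannot decide this, so the main fits were unpaired. Named members were those called, at most 6 per class by size, or the 3 with the smallest p, the highest and lowest of each class, AARS2, opposite pairs and those with a called interaction. Other genes and members were named after their values were seen. Positions are from GENCODE 44 and promoters from RefSeq. Python 3.11.15, numpy 2.4.6, pandas 2.3.3 and matplotlib 3.10.9 were used. Some results of single members are not reported here.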

Additional observations from a re-analysis of the deposited data

Results flagged for a closer look

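The BCSC effect differed between the lines in 2 of 37 members by a test of the difference itself, both with the larger effect in HCC70. Of all genes, 5.62% were called with the larger effect in HCC70 and 1.49% with the larger one in Hs578T. The members thus stood near the share over all genes. WARS1 fell in Hs578T BCSCs and had higher values in all HCC70 BCSC libraries, and the effect in HCC70 minus that in Hs578T was 0.4738 on the log2 scale. For CARS1 it was 0.2769, and this call was lost with the median of ratios, with the replicate block and in 10 of 12 fits without 1 library. Groups of 3 libraries are too small to look for single libraries that stand apart.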

How the results depend on the processing

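In Hs578T, 953 genes were called, against 1797 with edgeR and 1476 with DESeq2 on recovered reads, both chosen after seeing the data for the sorted lines. Members higher there numbered 2 with a pseudocount of 0.1, 0 without a minimum, 3 with the median of ratios, edgeR or DESeq2, and 0 with the replicate block, and members lower 0 without a minimum and 0 with the block. In HCC70, 374 genes were called, against 178 without a minimum, 233 with the median of ratios, 128 with the block, 754 with edgeR and 1152 with DESeq2. Members higher there numbered 1 with a pseudocount of 0.1, 0 without a minimum, 5 with a minimum of 10, 0 with the median of ratios or the block, 4 with edgeR and 9 with DESeq2. All genes called higher in HCC70 were 290 of 13218 with the pseudocount and 412 of 9596 with a minimum of 10. They were 440 of 13951 with edgeR and 617 of 17222 with DESeq2. Those of Hs578T were 383 of 13324 with the pseudocount and 620 of 13325 with the median of ratios. They were 846 of 14223 with edgeR and 786 of 18125 with DESeq2. With KIF20A sg1, DESeq2 called 16 genes. In the overexpression experiment, members lower numbered 8 with the median of ratios, edgeR or DESeq2 and 0 with the block. Genes called lower with the first 3 were 5007 of 15178, 5216 of 17078 and 5664 of 23792 in turn. Of the interaction, the block left 302 of 830 genes. Members with the larger effect in HCC70 numbered 1 with the median of ratios (403 of 11667 genes) or the block (235 of 11668 genes). Those with the larger effect in Hs578T numbered 2 with the median of ratios (333 of 11667 genes).

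With the median of ratios, edgeR and DESeq2 in turn, the median of the mitochondrial enzymes was 0.0546, 0.0600 and 0.0661 in Hs578T, 0.0357, 0.0363 and 0.0348 in HCC70 and 0.6815, 0.6936 and 0.6963 in the overexpression experiment (1.2217 with a minimum of 10). That of the cytosolic enzymes was 0.1265, 0.1273 and 0.1259 in HCC70 and -0.0558, -0.0498 and -0.0478 in the overexpression experiment. The interaction of AARS2, about 0, was 0.0023 with a pseudocount of 0.1.

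Without 1 library at a time, genes called ran from 343 to 865 in Hs578T, 32 to 270 in HCC70, 0 to 144 with KIF20A sg1, 9576 to 10364 in the overexpression experiment and 291 to 1225 for the interaction. Members higher ran from 0 to 1 in Hs578T and HCC70 and 20 to 21 in the overexpression experiment, members lower from 0 to 1 in Hs578T and 0 to 2 in the overexpression experiment, and members of the interaction from 1 to 7 (7 without Hs578T BCSC library 3) and 0 to 1. The medians of the cytosolic enzymes ran from -0.0129 to 0.0626 in Hs578T, 0.1303 to 0.1909 in HCC70, -0.1826 to -0.0003 with KIF20A sg1 and 0.2159 to 0.4301 in the overexpression experiment. Those of the mitochondrial enzymes ran from 0.0224 to 0.0463, 0.0398 to 0.1049, -0.0926 to -0.0211 and 0.8942 to 1.0888, and the interaction of AARS2 from -0.0390 to 0.0607. The replicate block ended the calls of WARS1 (adjusted p = 0.0601) and YARS2 (0.0610) in Hs578T, and of MARS1 (0.0803) and CARS1 (0.0798) in HCC70. It also ended those of CARS1 in the interaction (0.0716) and FARS2 (0.0539). Whether replicate numbers pair the samples is not given in the labels. The causes of these changes were not tested.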

Other observations

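HARS1 and HARS2, the cytosolic and mitochondrial histidine enzymes, lie head to head on opposite strands of chromosome 5, with starts 85 bases apart in RefSeq, while in the gene models of GENCODE 44 they overlap by 108 exon bases. Their differences were -0.08 and -0.10 in Hs578T, 0.12 and 0.06 in HCC70, -0.31 and -0.22 with KIF20A sg1 and 0.03 and -0.05 in the libraries labelled OE, and none passed the test. HARS1 was 134, 136 and 138 TPM in Hs578T non-BCSCs and 32.7, 33.5 and 32.5 TPM in HCC70 non-BCSCs, and HARS2 was 70.0, 69.8 and 67.8 TPM and 23.7, 23.5 and 26.5 TPM, in tables that were normalized separately.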
